A study of Macaca mulatta with 6 samples.

Results

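Chemokine receptors and CXC ligands were followed in blood cell colonies of rhesus macaque as a set of 9 gene names. They comprise the ligands CXCL1, CXCL8 and CXCL16, the receptors CCR1, CCR2, CX3CR1, CXCR2 and CXCR4, and the atypical receptor ACKR1. Members were found by gene symbol among the 32386 rows of the count table, and 8 had a row, 2 ligands and 6 receptors. CXCL8 was matched to no row and is not analysed here. All 8 passed the low-count filter and were among the 13768 genes tested.

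The libraries fall into 3 labelled TET2 UA (genotype TET2+/-, a uniallelic predicted loss-of-function mutation, here UA) and 3 labelled WT (wild type). Both kinds of colony came from autologously transplanted CD34+ blood stem and progenitor cells that had been treated with CRISPR/Cas9 before transplantation. The CD34+ cells were taken from marrow 15 months after transplantation and grown in methylcellulose for 14 days, and each library is 1 picked granulocyte-macrophage colony (CFU-GM), so each holds the progeny of 1 cell. The labels name neither the number of animals nor the mutation in each colony, so p-values rest on library-to-library spread alone, part of which can be technical.

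Chemokines are small secreted or membrane-bound proteins that guide leukocytes along gradients. They act on receptors with several membrane spans that signal through Gi proteins, and arrestins then switch those receptors off and carry them inside. CXC ligands with a glutamate-leucine-arginine motif, CXCL1 and CXCL8 among them, draw neutrophils through CXCR2. CXCL12 made by marrow stroma holds stem cells and immature myeloid cells in place through CXCR4, while CCR2 and its ligand CCL2 let monocytes leave the marrow. ACKR1, the Duffy antigen, binds many CC and CXC chemokines without Gi signalling.

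Total counts ranged from 6334264 to 17684447 in UA libraries and from 10574104 to 25485143 in WT libraries. Levels are given as CPM (counts scaled to a common library size), corrected by the trimmed mean of M-values (TMM). TET2, the targeted gene, had 238, 225 and 229 CPM in UA replicates 1 to 3 and 79.3, 92.8 and 109 CPM in WT replicates 1 to 3. Its level was higher in the libraries labelled as mutated (log2 fold change 1.30, SE 0.16, edgeR adjusted p = 3.93e-05), and the level alone does not check the labels, since the edited sequence itself was not looked at. The libraries are therefore named by their labels. The UA libraries resembled each other more than the WT libraries did, with a biological coefficient of variation of 0.105 in UA and 0.312 in WT. Between UA libraries the mean chi-square per gene was 4.30 to 5.25, above the value of counting noise alone, and between WT libraries it was 12.2 to 87.5, highest in the pairs with WT replicate 1. The 10 granulocyte-macrophage markers with a row were all detected under both labels and summed to 24826 to 25242 CPM in UA and 1652 to 1780 CPM in WT. Of these markers 6 rose and 2 fell in UA, and MPO (16743 CPM in UA, 810.4 CPM in WT) and LYZ (7600 CPM in UA, 464 CPM in WT) made up most of both sums.

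The receptors CXCR4, CX3CR1 and CXCR2 were higher in UA libraries, while the ligands CXCL1 and CXCL16 and the atypical receptor ACKR1 were lower. CCR1 and CCR2, the inflammatory CC receptors of monocytes, did not pass the test. At an edgeR quasi-likelihood adjusted p under 0.05 over all genes tested, 3 of 8 members rose and 3 fell. CX3CR1, with 0 counts in every WT library, passed the low-count filter through the UA libraries alone. CXCR2, with 10, 14 and 5 counts in WT replicates 1 to 3, needed its UA libraries to pass. Both are among the members called higher, so they entered the test through the group where they are high. The share of all genes called was 66% (34.6% higher and 31.4% lower), so the 75% of members called is near that of the whole table. The 3 UA libraries lay apart from the 3 WT libraries for 6 of 8 members, 3 higher and 3 lower, against 73.2% of all genes tested (39.2% higher and 34% lower). In whole colonies, fewer cells of a type and less RNA per cell cannot be told apart.

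**Figure D1:**
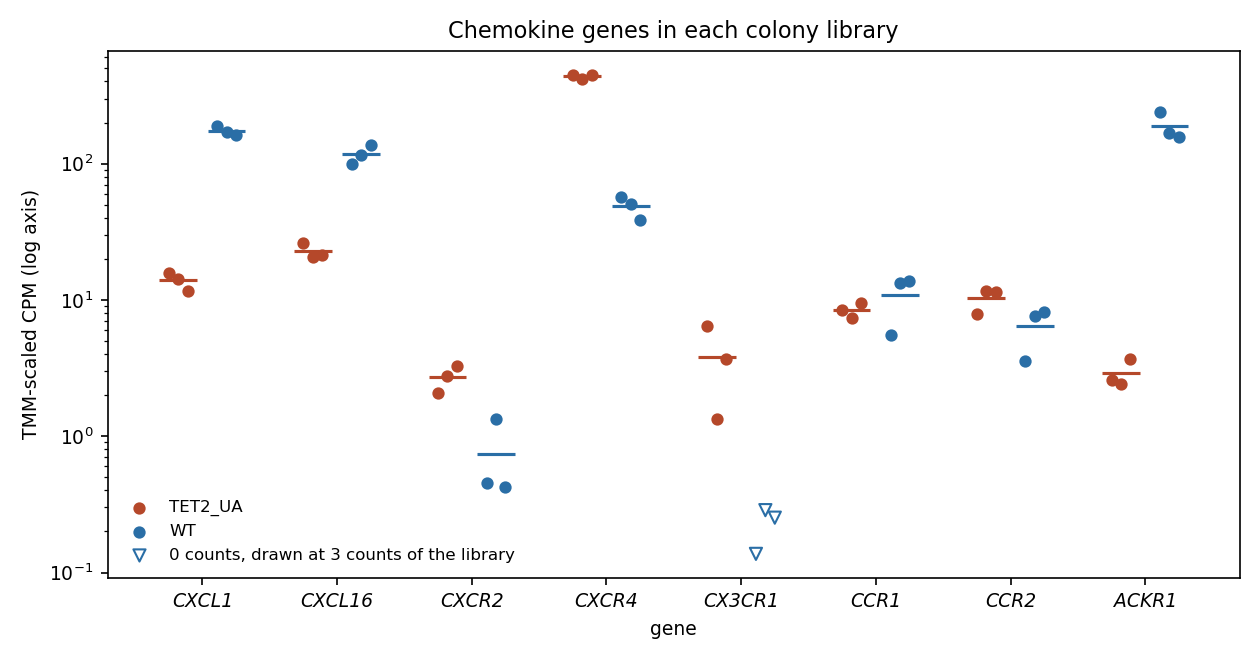
Level of each measured member (TMM-scaled CPM, log axis) in the 3 UA libraries (left, red) and the 3 WT libraries (right, blue), with bars at the group means. Open triangles stand for WT libraries with 0 CX3CR1 counts and are drawn at 3 counts of the library. CXCR4 lies between 418 and 449 CPM in UA, above all WT libraries, and ACKR1 between 2.40 and 3.69 CPM, below all of them.

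CXCL1, a ligand of CXCR2 that attracts neutrophils, was low in every UA library and high in every WT library. It had 15.8, 14.3 and 11.7 CPM in UA replicates 1 to 3, against 189, 170 and 163 CPM in WT replicates 1 to 3. The groups did not overlap, and the lowest WT library lay far above the highest UA library. CXCL1 fell 12.4-fold (log2 fold change -3.63, SE 0.19, edgeR adjusted p = 1.25e-07), and 113 of the 13768 genes tested had a more negative log2 fold change. The row is ENSMMUG00000008367, placed at 60629651 to 60631038 of chromosome 5 by the authors' deposited table. That table states no genome build for its positions. The table of gene names gives this row as CXCL1, whereas the deposited table describes it as CXCL3. CXCL1 and its near-identical paralogs can share reads, so its value may hold reads of both, and no other row carried the name CXCL2 or CXCL3.

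CXCL16, a membrane-bound chemokine that also takes up oxidized lipoprotein, was lower in UA as well. Its level was 26.0, 20.8 and 21.4 CPM in UA replicates 1 to 3, against 99.7, 116 and 137 CPM in WT replicates 1 to 3. Every UA library lay below every WT library. The fall was 5.15-fold (log2 fold change -2.36, SE 0.19, edgeR adjusted p = 2.61e-06). The authors' deposited table places it at 4646165 to 4654638 of chromosome 16. ADAM10 and ADAM17, the membrane proteases that shed CXCL16, rose in UA by log2 fold changes of 1.10 and 0.94 (edgeR adjusted p = 0.00795 and 0.00726). CXCR6, the receptor of CXCL16, had 2, 0 and 0 counts in UA replicates 1 to 3 and 0, 5 and 0 counts in WT replicates 1 to 3, too few to test.

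CXCR4, the CXCL12 receptor that keeps hematopoietic cells in the marrow, was higher in every UA library than in any WT library. It had 449, 418 and 445 CPM in UA replicates 1 to 3, against 57.3, 50.1 and 38.8 CPM in WT replicates 1 to 3. The UA libraries were within 1.07 times of each other and all far above WT. CXCR4 rose 8.95-fold (log2 fold change 3.16, SE 0.18, edgeR adjusted p = 2.69e-07), and 994 of the genes tested had a larger log2 fold change. CXCL12 itself had 61, 35 and 33 counts in UA replicates 1 to 3 and 3, 0 and 0 counts in WT replicates 1 to 3, a ratio of 53.4 with a 95% exact counting interval of 17.9 to 262 (edgeR adjusted p = 0.000193). CXCL12 was one of 8 stromal markers, of which 7 rose and 1 fell and which summed to 932 to 964 CPM in UA and 111 to 127 CPM in WT, with none at 0 in all 3 WT libraries. COL1A2 and COL1A1 (560.0 and 319 CPM in UA, 0.942 and 0.810 CPM in WT) made up most of the UA sum, and DCN, which fell (21.6 CPM in UA, 113 CPM in WT), most of the WT sum. The part of stromal transcripts in the CXCL12 value was not tested. DPP4, a surface peptidase that inactivates CXCL12, rose by a log2 fold change of 3.46 (edgeR adjusted p = 3.64e-05). MIF, a cytokine that can also bind CXCR4 and CXCR2, had a log2 fold change of -2.65 (edgeR adjusted p = 1.88e-06).

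CX3CR1, the fractalkine receptor of monocytes and resident macrophages, had counts in the libraries labelled UA and none in those labelled WT. It had 119, 14 and 25 counts in UA replicates 1 to 3, which are 6.45, 1.35 and 3.69 CPM, and 0 counts in all 3 WT libraries. Taken at 3 counts, a count of 0 allows up to 0.137, 0.287 and 0.253 CPM in WT replicates 1 to 3. The 95% exact counting intervals there reach 0.169, 0.353 and 0.311 CPM, for counting error alone. CX3CR1 was at least 65.4-fold higher in UA, taking 3 counts summed over the WT libraries as the limit (edgeR adjusted p = 0.000359). The 95% exact counting intervals of UA replicate 1 (5.34 to 7.72 CPM) and UA replicate 2 (0.736 to 2.26 CPM) did not overlap, so these libraries differed by more than counting error. With 4.79 times between its highest and lowest UA library, CX3CR1 varied more than the other members, whose UA libraries lay within 1.07 to 1.58 times. Without UA replicate 1, which holds most of its counts, the log2 of the bound was 5.07, and without WT replicate 1 it was 5.05, against 6.03 with all libraries. The authors' deposited table places CX3CR1 at 103406116 to 103423601 of chromosome 2, 49.0 kb from CCR8, which had 0, 3 and 4 counts in UA and 0 counts in WT. Its ligand CX3CL1 matched no row.

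CXCR2, the neutrophil receptor for CXCL1, CXCL8 and the platelet chemokine PPBP, was detected at a low level in every library. It had 38, 29 and 22 counts in UA replicates 1 to 3 and 10, 14 and 5 counts in WT replicates 1 to 3. In scaled terms these were 2.06, 2.79 and 3.25 CPM in UA, against 0.457, 1.34 and 0.421 CPM in WT, and the groups did not overlap. CXCR2 rose 3.71-fold (log2 fold change 1.89, SE 0.65, edgeR adjusted p = 0.0246), but in 5 of 6 fits without 1 library it was not called. Its log2 fold change was 2.05, 1.85 and 1.73 without UA replicate 1, 2 or 3 (edgeR adjusted p = 0.0535, 0.0834 and 0.094) and 1.61 and 1.63 without WT replicate 1 or 3 (0.0645 and 0.0628). The authors' deposited table places CXCR2 at 100220934 to 100233344 of chromosome 12. CXCR1, its close paralog 28.2 kb away, had 9, 17 and 7 counts in UA and 5, 0 and 0 counts in WT and was not tested, and reads may be shared between them. Beside CXCR2, 7 of 13 tested markers of maturing neutrophils rose and 3 fell. That list summed to 368 to 381 CPM in UA and 246 to 298 CPM in WT. CSF3R, which rose (185 CPM in UA, 11.4 CPM in WT), was the largest part of the UA sum. MMP9, which fell (15.4 CPM in UA, 128 CPM in WT), was the largest part of the WT sum. S100A12 had 0 counts in WT and only 5, 1 and 3 counts in UA replicates 1 to 3, and was not tested. The part of maturing neutrophil transcripts in the CXCR2 value was not tested.

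CCR1, a receptor for CCL5 and related CC chemokines on monocytes and neutrophils, was not called different between the labels. It had 8.45, 7.404 and 9.45 CPM in UA replicates 1 to 3, against 5.57, 13.2 and 13.8 CPM in WT replicates 1 to 3. All UA libraries lay between WT replicate 1 and the other WT libraries. Its log2 fold change was -0.36, with a 95% normal interval from -1.05 to 0.34 (edgeR adjusted p = 0.395), which leaves room for a lower or a slightly higher level in UA. Without WT replicate 1 the log2 fold change was -0.68 and CCR1 was called lower (edgeR adjusted p = 0.032).

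CCR2, the receptor of CCL2 on classical monocytes, had 7.86, 11.5 and 11.4 CPM in UA replicates 1 to 3, against 3.56, 7.65 and 8.08 CPM in WT replicates 1 to 3. UA replicate 1 lay among the WT values, so the groups overlapped. The log2 fold change was 0.68, with a 95% normal interval from -0.025 to 1.39 (edgeR adjusted p = 0.117). This interval is narrower than the F-test with 3 libraries per label would give. WT replicate 1 was again the lowest of the WT libraries, and without it the log2 fold change was 0.38 (edgeR adjusted p = 0.277). CCR2 and CCR1 lie in the receptor cluster of chromosome 2, at 96185665 to 96188027 and at 96351311 to 96357890 by the authors' deposited table. Of 10 tested monocyte markers, given beside these receptors, 6 rose and 3 fell, and the list summed to 8308 to 8430 CPM in UA and 1995 to 2540 CPM in WT, with none at 0 in all 3 WT libraries. In UA the sum was mostly LYZ (7600 CPM in UA, 464 CPM in WT), which granulocytes also make, while CD14 fell to 21.7 CPM in UA, against 1147 CPM in WT. The part of these transcripts in the CCR1 and CCR2 values was not tested.

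**Figure D2:**
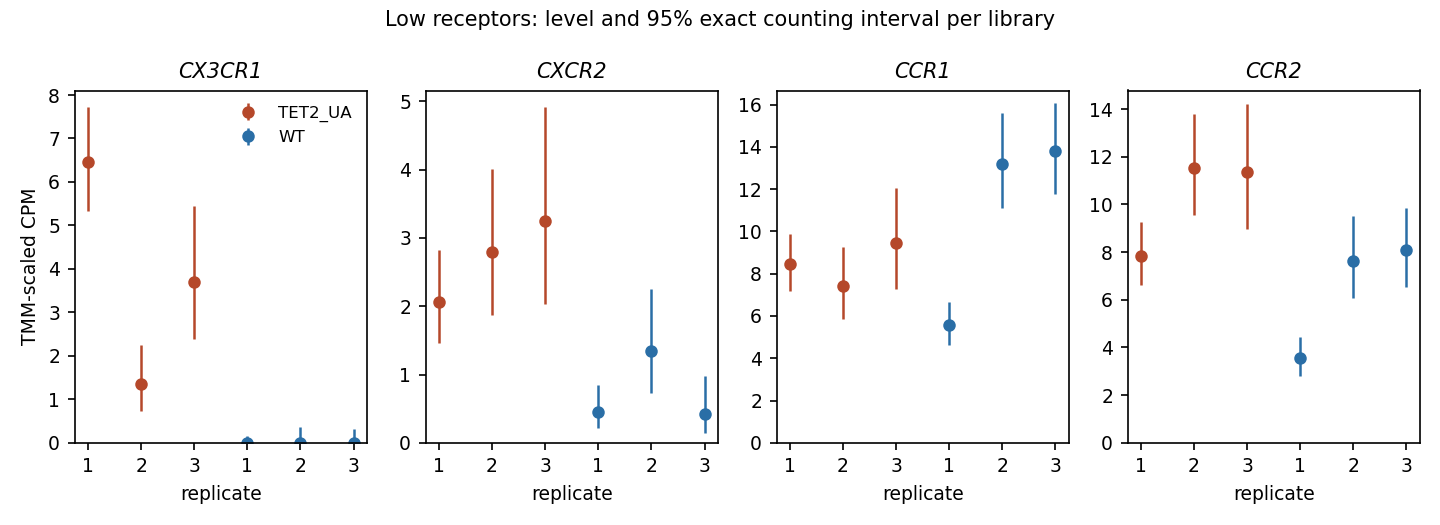
Level of the 4 receptors with low counts in each library (TMM-scaled CPM), with UA replicates 1 to 3 at left in red and WT replicates 1 to 3 at right in blue. Bars are 95% exact Poisson counting intervals, which cover counting error only. CX3CR1 varies between UA libraries from 1.35 to 6.45 CPM, and WT replicate 1 is the lowest WT library for CCR1 and CCR2.

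ACKR1, the chemokine-binding Duffy antigen of red cells and venular endothelium, had the most negative log2 fold change of the members. It had 48, 25 and 25 counts in UA replicates 1 to 3 and 5260, 1752 and 1863 counts in WT replicates 1 to 3. These were 2.60, 2.40 and 3.69 CPM in UA, against 240 (WT replicate 1), 168 and 157 CPM in WT, with no overlap. ACKR1 fell 66.7-fold (log2 fold change -6.06, SE 0.27, edgeR adjusted p = 6.23e-08), and 16 of 13768 genes tested had a more negative log2 fold change. The authors' deposited table places it at 133909861 to 133912994 of chromosome 1.

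Markers of the cell types that carry ACKR1 went different ways. Of 8 erythroid markers tested 4 rose and 4 fell, and the list summed to 95.1 to 113 CPM in UA and 348 to 407 CPM in WT, with none at 0 in all 3 WT libraries. RHAG, a partner of the red cell Rh complex, fell, as ACKR1 did (12.9 CPM in UA, 214 CPM in WT). Of 11 endothelial markers tested 9 rose and 1 fell, and they summed to 670.0 to 704 CPM in UA and 321 to 349 CPM in WT. ESAM, the marker that fell (145 CPM in UA, 254 CPM in WT), made up most of the WT sum. CDH5, among those that rose, had 48.3 CPM in UA and 1.24 CPM in WT. The part of either cell type in the ACKR1 value was not tested.

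**Figure D3:**
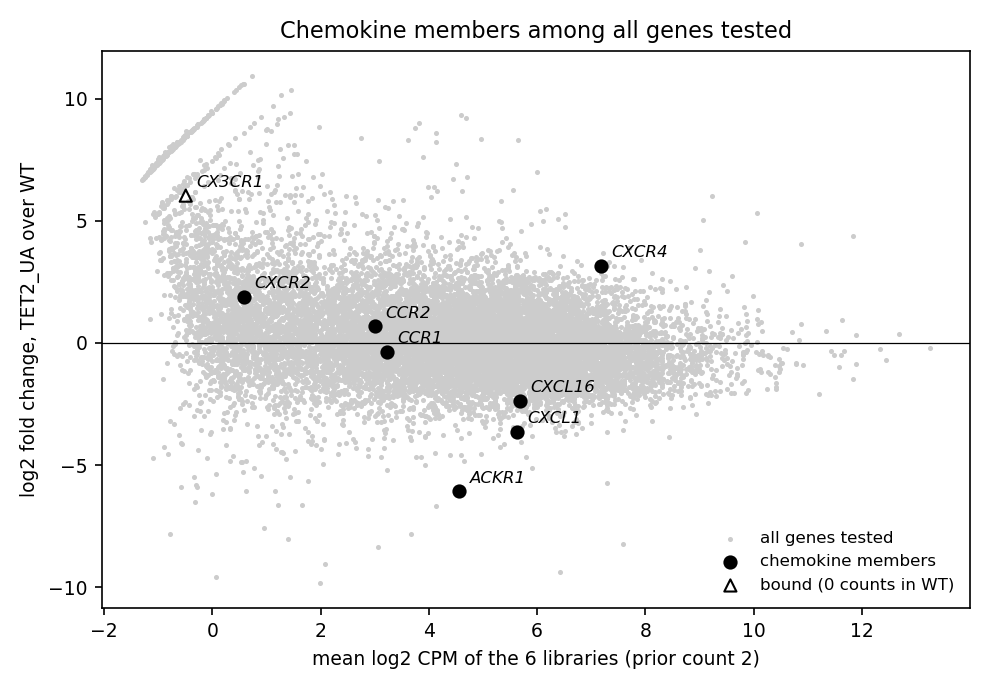
Log2 fold change, UA over WT, against mean log2 CPM of the 6 libraries for the 13768 genes tested (grey) and the measured members (black). CX3CR1 is drawn at its lower bound, and grey points of genes with 0 counts in a group are fitted values that depend on the prior count. ACKR1 at -6.06 lies near the lower edge, and CCR1 at -0.36 and CCR2 at 0.68 lie in the middle of the cloud.

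The other CXC ligands moved in both directions. Of 9 with a row 7 were tested, 4 rose and 2 fell (85.7% called, against 66% of all genes), and their median log2 fold change of 5.73, the fitted value of CXCL12, stands beside 0.12 for all genes. PPBP, whose product is a CXCR2 ligand, had 258 CPM in UA and 0.614 CPM in WT (log2 fold change 8.78, SE 0.32, edgeR adjusted p = 1.95e-08). PF4, platelet factor 4, had 204 CPM in UA and 0.609 CPM in WT (log2 fold change 8.32), and PF4V1, its variant gene with which it can share reads, 25.8 CPM in UA and 0.352 CPM in WT, where replicate 3 held 12 of 13 counts. These 3 genes are neighbours of the CXCL1 row on chromosome 5, at distances of 44.7, 50.8 and 208 kb, and rose where that row fell. Of 12 tested megakaryocyte markers, PF4 and PPBP among them, 7 rose and 1 fell, summing to 867 to 884 CPM in UA and 435 to 482 CPM in WT. TUBB1, which fell (203 CPM in UA, 440.1 CPM in WT), made up nearly all of the WT sum, and PPBP and PF4 themselves more of the UA sum than the other markers together. The part of megakaryocyte transcripts was not tested.

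CXCL13, a B cell attractant, had 0, 2 and 0 counts in UA replicates 1 to 3 and 102, 53 and 58 counts in WT replicates 1 to 3. Its level was lower in UA by a ratio of 85.8, with a 95% exact counting interval of 23.5 to 713 (edgeR adjusted p = 9.99e-05). CXCL14, a chemokine of epithelium and macrophages, had 0.509 CPM in UA and 7.13 CPM in WT (log2 fold change -3.82, SE 0.64, edgeR adjusted p = 0.000357). CXCL9, an interferon-induced CXCR3 ligand, had 33, 8 and 14 counts in UA and 0 counts in WT, at least 22.8-fold higher by the same limit, but was filtered out before testing. CXCL10, the other interferon-induced ligand with a row, had 4.46 CPM in UA and 4.89 CPM in WT and was not called (log2 fold change -0.11, edgeR adjusted p = 0.819). CXCL5, a further CXCR2 ligand, had 0, 0 and 2 counts in UA and 9, 10 and 0 counts in WT and was not tested.

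Among CC ligands, several of which bind ACKR1, CCR1 or CCR2, 7 of 10 tested fell and 1 rose (80% called, against 66% of all genes). The median of their log2 fold changes was -3.99, beside 0.12 for all genes. Together the 20 with a row summed to 31.0 to 36.4 CPM in UA and 4574 to 7586 CPM in WT. CCL2, CCL7 and CCL8, which act on CCR2, had log2 fold changes of -8.23, -5.63 and -3.98 (edgeR adjusted p = 4.19e-08, 1.6e-06 and 2.82e-05). CCR2 itself was not called. CCL1, the ligand of CCR8, had 2.98, 3.75 and 3.10 CPM in UA replicates 1 to 3, against 2523, 1829 and 2101 CPM in WT replicates 1 to 3 (log2 fold change -9.36, SE 0.23, edgeR adjusted p = 2.89e-09). CCL18, a product of alternatively activated macrophages, had a log2 fold change of -4.00 (edgeR adjusted p = 2.43e-05). CCL22, a CCR4 ligand, had 0, 0 and 1 counts in UA and 27, 28 and 38 counts in WT, lower in UA by a ratio of 74.9 with a 95% exact counting interval of 13.1 to 2990 (edgeR adjusted p = 0.000738). CCL5, a ligand of CCR1, rose by a log2 fold change of 4.35 (edgeR adjusted p = 0.000348), with 78, 82 and 30 counts in UA replicates 1 to 3 and 7, 0 and 5 counts in WT replicates 1 to 3.

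Of the other receptors 16 had a row, but only 6 had enough counts to test, of which 1 rose and 2 fell (50% called, against 66% of all genes), with a median log2 fold change of 0.21 beside 0.12 for all genes. CXCR5, the CXCL13 receptor of B cells, had 24.6 CPM in UA and 2.07 CPM in WT (log2 fold change 3.58, SE 0.30, edgeR adjusted p = 2.88e-06). Beside it, 5 of 7 tested lymphoid markers rose and 2 fell. The lymphoid list summed to 319 to 356 CPM in UA and 187 to 238 CPM in WT. CD3E had 0 counts in WT and only 1, 5 and 1 counts in UA replicates 1 to 3. KLRD1 had 0 counts in WT and only 1, 0 and 0 counts in UA, and neither gene was tested. The part of lymphoid transcripts in the CXCR5 value was not tested. ACKR3, the scavenger of CXCL12, had a log2 fold change of -2.13 and CCRL2, a non-signalling chemerin-binding receptor, one of -1.03 (edgeR adjusted p = 0.023 and 0.0203). In fits without 1 library the number of these receptors called lower ranged from 0 to 2. CCR7, the lymph node homing receptor, had 21.6 CPM in UA and 19.8 CPM in WT (a log2 fold change of 0.12, edgeR adjusted p = 0.645), and CCR9 was not called either (log2 fold change 0.50, edgeR adjusted p = 0.575). CXCR3 had 24, 8 and 0 counts in UA and 0 counts in WT, too few to test.

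In the receptor cluster of chromosome 2, CCRL2, CCR3, CCR1, XCR1, CXCR6 and CCR9 lie within 467.5 kb of CCR2, and reads may be shared between similar genes there. Of these genes CCRL2 was called, with 3.86 CPM in UA and 7.86 CPM in WT, and CCR3, XCR1 and CXCR6 had too few counts to test. CCR3, the eotaxin receptor of eosinophils, had 8, 5 and 0 counts in UA and 9, 0 and 0 counts in WT. Of 8 tested mast cell, basophil and eosinophil markers, 6 rose and 1 fell, and that list, of which CCR3 is a member, summed to 1563 to 1667 CPM in UA and 209 to 235 CPM in WT. EPX and PRG3 (877 and 499 CPM in UA, 2.90 and 11.0 CPM in WT) made up most of the UA sum. GATA2, which fell (68.6 CPM in UA, 115 CPM in WT), was the largest part of the WT sum. Dendritic markers, which include CCR7 and XCR1, rose in 4 of 11 and fell in 5, at 764 to 804 CPM in UA and 531 to 557 CPM in WT.

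Genes that carry the receptor signal onward or end it were mostly called, in both directions. Of 19 tested, 12 rose and 6 fell (94.7% called, against 66% of all genes), with a median log2 fold change of 0.68 beside 0.12. PREX1, a Rac exchange factor driven by G protein beta-gamma, had 183 CPM in UA and 26.1 CPM in WT (log2 fold change 2.81 with SE 0.15, edgeR adjusted p = 1.93e-07). GNG2, a G protein gamma subunit, PLCB2, a phospholipase of leukocytes, and DOCK2, the Rac activator of migrating leukocytes, rose by log2 fold changes of 3.26, 2.36 and 2.19 (edgeR adjusted p = 1.79e-06, 2.45e-06 and 1.68e-05). RAC1, the target of these exchange factors, had 128 CPM in UA and 327 CPM in WT (log2 fold change -1.35), and GNB1, a G protein beta subunit, a log2 fold change of -1.24 (edgeR adjusted p = 3.18e-05 and 6.17e-05). With the UA libraries summed to 1 sample, where only the WT libraries give the spread, 6 genes of this list were called higher.

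Proteins that cut chemokines or stand in for them, listed together with CD74, completed the set. All 8 were called, 5 higher and 3 lower (100% called, against 66% of all genes). Their median log2 fold change was 1.02, beside 0.12 for all genes. CD74 was among the 3 lower genes (log2 fold change -0.47, edgeR adjusted p = 0.0134). CTSG and ELANE, neutrophil granule proteases that can trim chemokines and cleave CXCL12, had 3870 and 3111 CPM in UA and 219 and 94.2 CPM in WT. MMP9, a protease that cuts CXCL8 and CXCL12, fell to 15.4 CPM in UA, against 128 CPM in WT (log2 fold change -3.04 with SE 0.23, edgeR adjusted p = 1.84e-06).

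**Figure D4:**
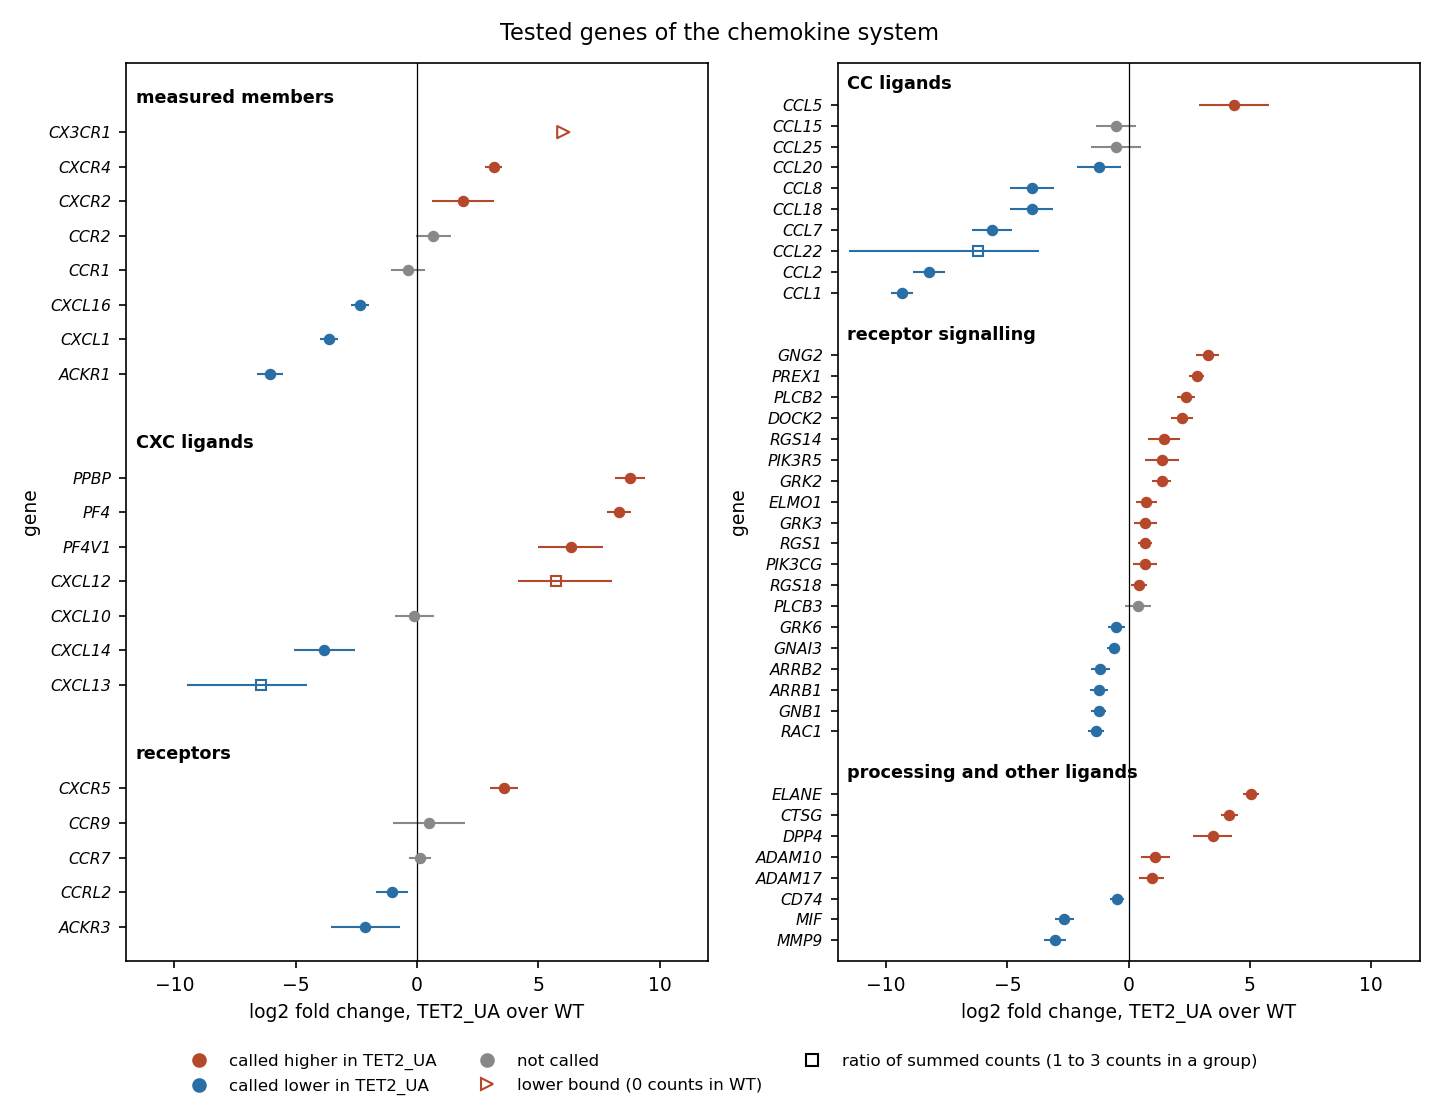
Log2 fold change, UA over WT, of tested genes of the chemokine system, grouped by role, with 95% normal intervals from the SE. Squares are ratios of summed counts with 95% exact counting intervals for genes with 1 to 3 counts in a group, and the open triangle is the CX3CR1 lower bound. Platelet CXC ligands lie far to the right at up to 8.78 and CC ligands mostly to the left.

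The genes whose profile over the 6 libraries was most like that of each member were found by the root mean square difference of centred log2 CPM. This measure takes in the difference between the labels as well as the spread within them. CXCR4 ran closest to CD33, a myeloid surface lectin (0.033), then to TSC22D3 and FBN1 (0.092 and 0.098). CXCL1 ran closest to GFI1B, an erythroid and megakaryocyte repressor (0.062), then to SRXN1 and IDO1 (0.13 and 0.14). ACKR1 was nearest to CD14, the lipopolysaccharide co-receptor of monocytes, at a wider difference of 0.25, followed by EPGN and CCL7 (0.41 and 0.47). For CXCL16 these genes were SLC5A6, HSP90AB1 and MYC (0.11, 0.16 and 0.17). For CCR1 they were STX12, PDE8A and DSG2 and for CCR2 PML, WDR36 and LPP, at 0.072 to 0.12. For CX3CR1 they were PRRT2, LRRC15 and SEMA3A and for CXCR2 a row named Metazoa_SRP, OAS3 and GPAT2, at 0.197 to 0.322, which were looser matches.

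**Figure D5:**
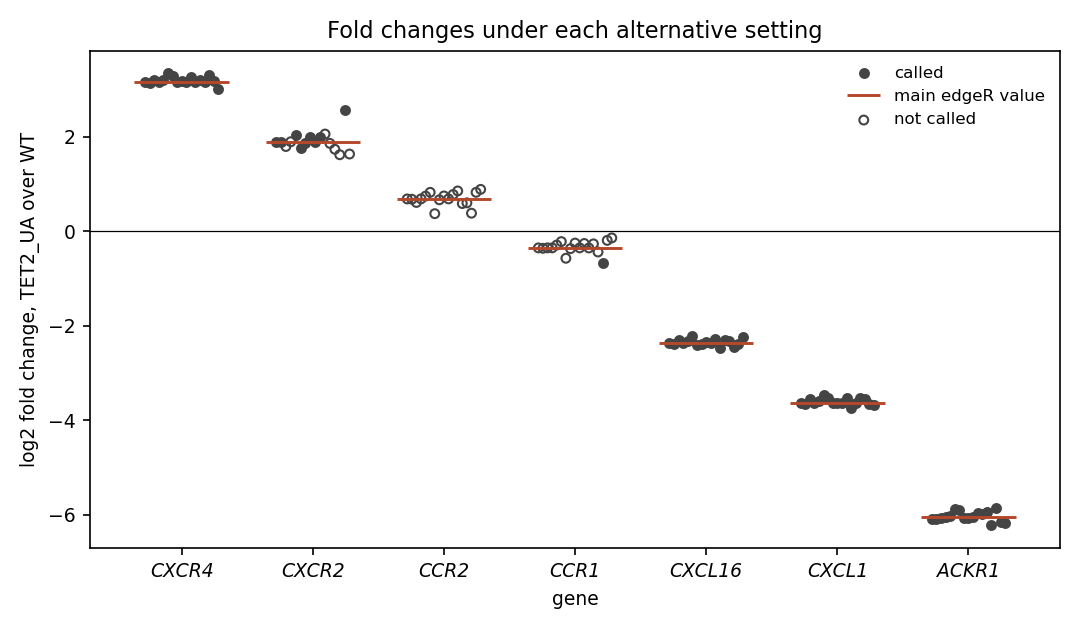
Log2 fold change, UA over WT, of 7 members under each alternative setting (circles, filled where called and open where not), with the edgeR value of the report as a red line. CX3CR1 is left out because its value is a bound. CXCR4, CXCL16, CXCL1 and ACKR1 were called under every alternative run, CXCR2 under some, CCR2 under none and CCR1 in 1 fit, that without WT replicate 1.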

How the data were processed

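RNA of 6 colonies was amplified with SMART-Seq V4 and made into Nextera XT libraries, per the labels' protocols. This chemistry marks neither strand nor molecule, so reads of antisense or overlapping genes are not separable and duplicate PCR reads stay in the counts. Intervals and floors cover counting error only. The build Mmul_8.0.1 and bcl2fastq are named in the submitters' processing notes. The aligner and the counter have names not given in the sources used here. Raw counts per gene, without normalization, were deposited by the authors. They also deposited a differential expression table with a mean of normalized counts (a signal), log2 fold changes, a test statistic (a score) and p-values, per the file headers. Which libraries it compares is not stated, so it served for gene names and coordinates.

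Symbols came from the row name (2529 rows), the deposited table (9226, and 2 by description) or a table of gene names (7223), and 13406 rows had none. Where rows shared a symbol, the row with the highest total was used. The test was that of edgeR 4.0.16 under R 4.3.3 (quasi-likelihood F-test, robust, filterByExpr with minimum count 10, TMM), with the label as the only term and Benjamini-Hochberg adjustment over 13768 genes. The standard error is the log2 fold change over the square root of F. On simulated counts for UA against WT with 13768 genes, of 100 genes given a log2 change of 1 the test recovered 51%, and of 100 given 2 it recovered 89%, with 14 false among 154 calls. In the real comparison far more genes were called, so these shares need not hold there.

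The members and lists were chosen with earlier results of these data known. Named genes are the members, TET2, up to 6 genes of smallest p per chemokine list, genes with 0 counts in a group, chromosome neighbours and the 3 most similar profiles per member. Genes of the chemokine lists named besides these, such as receptors with few counts and the ligands of a member, were chosen after their values were seen, as were markers. Marker lists cover granulocyte-macrophage, neutrophil, monocyte, stromal, endothelial, erythroid, lymphoid, dendritic and megakaryocyte genes and those of mast cells, basophils and eosinophils. Alternatives were other scalings and filters, DESeq2 1.42.0, limma 3.58.1 voom, a replicate block, leaving out each library, summing the UA libraries, summing rows that share a symbol, and an adjusted p under 0.01. Some genes counted in the lists are not reported here by name.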

Additional observations from a re-analysis of the deposited data

How the results depend on the processing

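CXCL1, CXCL16, CXCR4 and ACKR1 kept their direction and their call under all 17 alternatives and CX3CR1 under the 16 that could be run, since the stricter filter (at least 5 CPM in 3 libraries) removed CX3CR1 and CXCR2. No member changed sign. In the fit with the UA libraries summed to 1 sample only the WT libraries give the spread, and the lone UA sample is assumed to vary like them. CXCR2 was not called in 7 of 16, which were that fit (log2 fold change 1.79, adjusted p = 0.315), the threshold of 0.01 (1.89) and 5 of 6 fits without 1 library (1.61 to 2.05, adjusted p = 0.0535 to 0.094). In the other, without WT replicate 2, it was called (2.57, adjusted p = 0.00843). CCR1 had -0.68 to -0.15 without 1 library and was called only without WT replicate 1, and the log2 bound of CX3CR1 ran from 5.05 to 6.40. Under the stricter filter 1 member and 0 CC ligands were called higher, and 0 of the other CXC ligands and 1 of the other receptors were called lower. With the UA libraries summed, 3014 genes were called higher and 2410 lower, against 4770 and 4321, with 6 signalling genes higher and 0 of the other receptors lower. Other receptors called higher numbered 4 with the DESeq2 test and 3 with no filter, and 1 to 2 without 1 library, while receptors called lower were 0 at an adjusted p under 0.01 and 0 to 2 without 1 library. Library size alone moved the median log2 fold change of all genes to 0.28, against 0.12. Same-numbered libraries deviated together with correlations of only 0.013, 0.022 and 0.013, although each library correlated best with its own number. Correlations this small over all genes do not show that the numbers pair the libraries, and they cannot exclude it. With the replicate block 4765 genes rose and 4174 fell, CXCR2 had a log2 fold change of 1.998 (adjusted p = 0.0468), and no call of a member changed. Depth limits CXCR2, CX3CR1 and most of the other receptors, which had few counts.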

Other observations

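The authors' deposited table, whose libraries and direction are not stated, gives log2 fold changes of 3.27 for the CXCL1 row, 2.03 for CXCL16 and 1.79 for ACKR1, and of -1.71 for CCR1, -3.93 for CCR2, -3.36 for CX3CR1 and -1.64 for CXCR2. It gives 1.73 for TET2. The 5 called members listed there (CXCL1, CXCL16, ACKR1, CX3CR1 and CXCR2) have the opposite sign to UA over WT in the counts, while TET2 has the same sign, so the authors' deposited table does not match a comparison of these 6 libraries in either direction. In the authors' deposited table RGS18, a regulator of G protein signalling and the first gene listed, has a log2 fold change of 6.40, whereas the counts gave 0.42 (SE 0.17, edgeR adjusted p = 0.0488). RGS18 had 213 CPM in UA and 159 CPM in WT. RGS18 was chosen after its values were seen.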
